A study of Danio rerio with 19 samples.

Results

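The genes of glycolysis and of the citric acid cycle were followed through the RNA of zebrafish eggs, early embryos and sperm. They were chosen by name: 57 of the 14244 gene names in the RNA tables matched a pattern of enzyme names, and dld was left out because RefSeq lists it as a gene apart from dldh, the dihydrolipoamide dehydrogenase gene. The 54 described here comprise 13 genes of the hexose steps of glycolysis, 12 of the triose steps, 4 lactate enzymes, 5 genes of the pyruvate dehydrogenase complex, 13 of the citric acid cycle, and 5 genes of the enzymes that make and break fructose-2,6-bisphosphate. The last 2, pgam5 and pkmyt1, match by their letters only: pgam5 encodes a mitochondrial protein phosphatase and pkmyt1 a kinase that inhibits Cdk1 at entry into mitosis. The hexose-step group also holds tpi1a and tpi1b of triosephosphate isomerase, an enzyme that acts on trioses. Every hexose-step count, share and median includes these genes unless stated, and the triose-step values leave them out.

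The series holds 19 samples of the Tubingen strain, 1 per group, and 4 of them are RNA libraries: egg, 1k-cell embryos, which are blastulae, germ ring embryos, at the start of gastrulation, and sperm. The samples are given without a genotype or a treatment, and the labels do not say how many animals or clutches were pooled or how the gametes were collected. The DNA methylation and hydroxymethylation samples were not used here. With 1 library per group no test was possible, so each difference compares single libraries, and the exact 95% intervals given below cover counting error only.

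Glycolysis splits glucose into pyruvate in the cytosol and yields ATP without oxygen. Pyruvate is then reduced to lactate by lactate dehydrogenase, or enters the mitochondrion, where the pyruvate dehydrogenase complex turns it into acetyl-CoA for oxidation in the citric acid cycle. Vertebrates hold several copies of most of these enzymes with tissue-specific use, such as the muscle-type and brain-type aldolases, and the teleost genome duplication added further copies. Embryos before genome activation depend on RNA loaded into the egg, and the embryo's own genome is broadly transcribed by the onset of gastrulation.

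The values are normalized counts, which are the authors' read counts per gene scaled between libraries. The libraries held 9241829 recovered reads for egg, 24256918 for 1k-cell embryos, 14753999 for germ ring embryos and 21138688 for sperm, where 1 read is worth 1.98, 0.951, 1.51 and 0.993 normalized counts. The library labelled sperm also held markers of other cells. All 15 flagellum and testis markers in the tables reached 10 in it and 7 of 15 in egg, with sums of 1219 in egg and 129331 in sperm. Of 15 oocyte markers 14 reached 10 in both, with sums of 63132 in egg and 339166 in sperm, and figla was at 0 in every library. Liver markers reached 10 for 1 of 15 in egg and 15 of 15 in sperm, with sums of 13.9 in egg and 5646 in sperm. Skeletal muscle markers did so for 3 of 28 in egg, where 14 such as ckma had no read, and 24 of 28 in sperm, with sums of 294 in egg and 5001 in sperm. Red blood cell markers reached 10 for 2 of 11 in egg and 10 of 11 in sperm, with sums of 451 in egg and 91916 in sperm. Testis somatic cell markers did so for 5 of 15 in egg and 15 of 15 in sperm, with sums of 16924 in egg and 24439 in sperm. Most of the 2 egg sums came from single genes, blf (389) and cyp11a1 (13986). The egg library in turn held skin and connective tissue genes with few reads in 1k-cell embryos. Among them were krt5 (82.7 in 1k-cell embryos against 109093 in egg), col1a2 (0 against 1798) and cldni (0 against 2403), which were chosen after their values were seen. The part of these other cells in the values of the metabolic genes was not tested. In libraries of whole embryos, more cells of a type and more RNA per cell cannot be told apart.

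A normalized count of 10 or more in at least 1 library was reached by 53 of the 54 genes, and 41 reached it in all 4. Counts of 10 or more were held by 42 of the genes in egg, 43 in 1k-cell embryos, 45 in germ ring embryos and 53 in sperm. The citrate synthase gene cs, which catalyses entry into the citric acid cycle, was listed at 0 in all 4 libraries under both of its entries. The counting tool and the annotation were not given, so this 0 cannot be read as absence of the RNA. A further 8 genes, 14.8% of the 54 beside 10.0% of all gene names, reached 10 in sperm alone: the second copies gpib, pfkmb, aldoab, aldoca, pkm2b and pdha1b, the mutase gene pgam2, known as muscle-type in mammals, and eno2, known as neuronal in mammals. Among the 45 genes that reached 10 in egg or an embryo library, 9 were highest in egg, 16 in 1k-cell embryos and 20 in germ ring embryos. Over all gene names these shares were 19.8%, 49.5% and 30.7%, beside 20.0%, 35.6% and 44.4% of these 45 genes. With median-of-ratios scaling 16 were highest in egg, 7 in 1k-cell embryos and 22 in germ ring embryos, beside 40.0%, 25.7% and 34.2% of all gene names. This scaling sets each library by the median of its genes' ratios to their average. Upper-quartile scaling gave the same 3 counts of the 45.

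**Figure D1:**
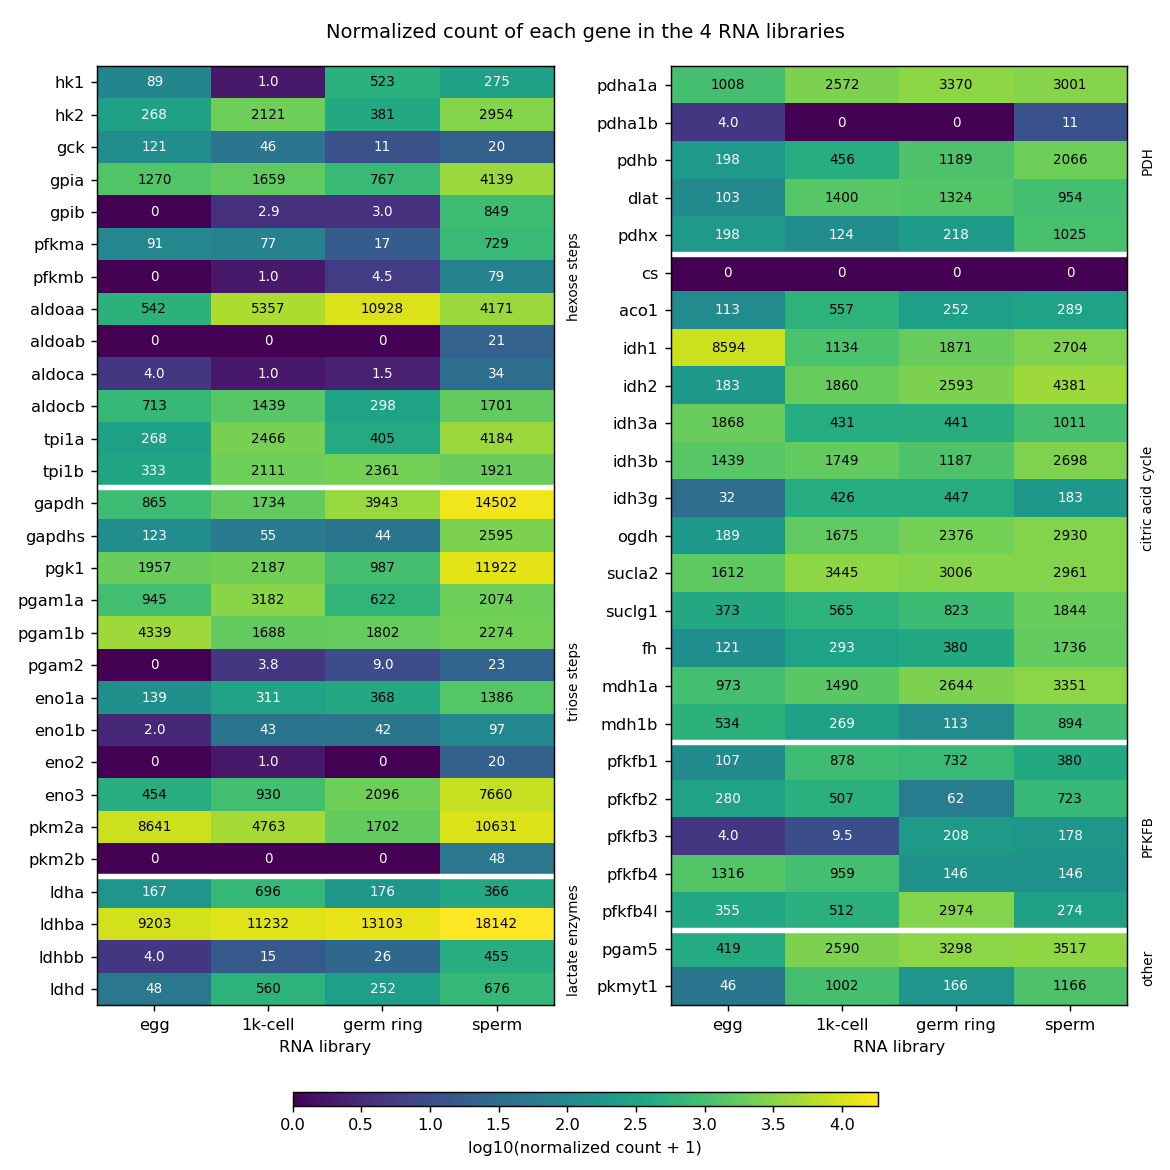
Normalized count of each of the 54 genes (rows, grouped by role) in the egg, 1k-cell, germ ring and sperm libraries (columns, 1 library each); the colour is log10 of the normalized count plus 1 and the printed number is the count itself. The values of ldhba lie between 9203 and 18142, cs is at 0 throughout, and 8 genes reached 10 in sperm alone.

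Counted as a share of all recovered reads of a library, which sets the library totals equal, the 54 genes took 0.276% of the egg library, 0.293% of the 1k-cell library, 0.318% of the germ ring library and 0.630% of the sperm library. The hexose steps took 0.0202% of the reads in egg, 0.0663% in 1k-cell embryos, 0.0706% in germ ring embryos and 0.1004% in sperm. The aldoaa gene alone held 69.6% of the hexose-step reads of germ ring embryos. Without aldoaa the hexose steps took 0.0172% in egg, 0.0430% in 1k-cell embryos and 0.0215% in germ ring embryos, so that their germ ring share lay below that of 1k-cell embryos. Of these germ ring reads the triosephosphate isomerase gene tpi1b held 49.5%. Of the reads left without aldoaa, tpi1a and tpi1b together held 303 of 1591 in egg and 4814 of 10439 in 1k-cell embryos. In germ ring embryos this pair held 1836 of 3167. With the pair also taken out, the germ ring share lay below that of egg, and 1k-cell embryos kept the highest share of these stages. The rank of germ ring embryos above egg without aldoaa thus rested on this pair, which was left out after its values were seen. The triose steps took 0.0952% in egg, 0.0646% in 1k-cell embryos and 0.0523% in germ ring embryos, and 0.253% in sperm. The high triose share of egg rests on pkm2a and pgam1b, without which it was 0.0245% in egg, 0.0366% in 1k-cell embryos and 0.0365% in germ ring embryos. These genes were left out after their values were seen. The citric acid cycle genes took 0.0874% in egg, 0.0602% in 1k-cell embryos, 0.0726% in germ ring embryos and 0.119% in sperm, and the pyruvate dehydrogenase complex took 0.00825% in egg, 0.0197% in 1k-cell embryos, 0.0275% in germ ring embryos and 0.0336% in sperm. In egg the cytosolic gene idh1 alone held 53.6% of the citric acid cycle reads. The top gene of this group in the embryos, sucla2, held 24.8% in 1k-cell embryos and 18.6% in germ ring embryos. The group also counts the cytosolic genes aco1, mdh1a and mdh1b. The idh1 gene held 4330 of the 8076 cycle reads in egg, 1193 of 14613 in 1k-cell embryos and 1242 of 10708 in germ ring embryos. With idh1 taken out, the share of the cycle in egg lay below those of 1k-cell and germ ring embryos. The rank of egg above the embryos thus rested on this gene, which was singled out after its values were seen. In each library the exact 95% interval of the share of all 54 genes spans less than 0.01 percentage points.

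**Figure D2:**
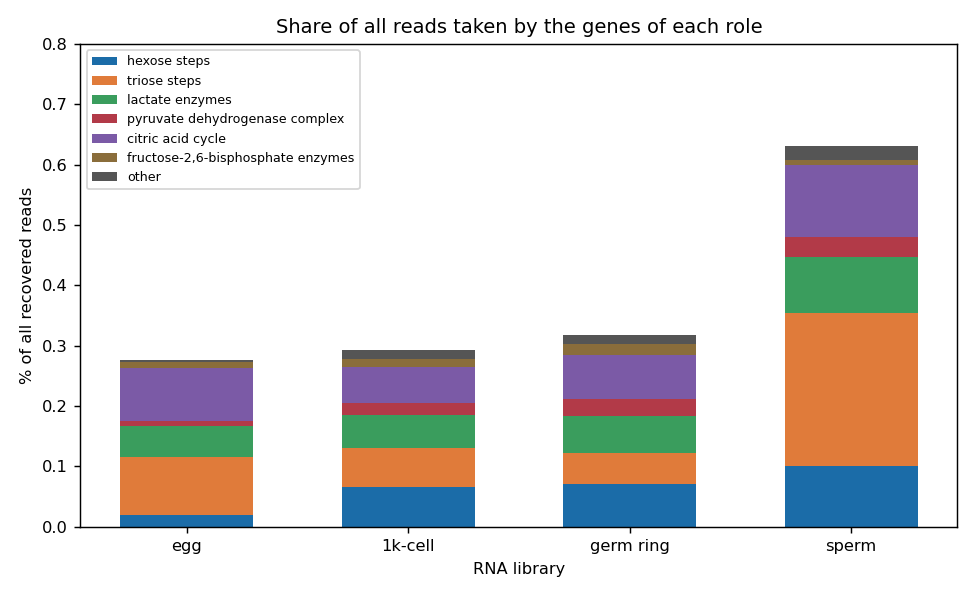
Share of all recovered reads (vertical axis, percent) taken by the genes of each role (stacked colours) in the 4 RNA libraries (horizontal axis, 1 library each). The hexose steps hold 0.0202% in egg, 0.0663% in 1k-cell embryos and 0.0706% in germ ring embryos, the last mostly aldoaa, and the triose steps are widest in sperm (0.253%).

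The libraries labelled egg and sperm were compared next. Both also held RNA of genes known from other cells, as given above, so their ratios are not those of pure gametes. A gene counts as measured where it reached 10 in either library, and its log2 ratio is that of the normalized counts plus 1. Genes of glycolysis were lower in egg: of the 13 hexose-step genes 12 were below sperm by 2-fold or more and 1, the glucokinase gene gck, was above it, and of the 12 triose-step genes 10 were lower and none higher. A count of 10 was reached by 42 of the genes in egg and 53 in sperm. Those that reached it in sperm but not in egg could not come out higher. Among them were gpib, pfkmb, aldoab and aldoca of the hexose steps, and pgam2, eno1b, eno2 and pkm2b of the triose steps. The same limit holds for the background of all genes. In the citric acid cycle, 7 of 12 measured genes were lower and 1, idh1, was higher. Over all 53 measured genes, 42 were at least 2-fold lower and 3 higher, beside a background of 61.3% of all genes lower and 14.3% higher. The median log2 ratio was -2.61 for these genes and -1.80 over all genes, and by role it was -4.07 for the triose steps, -2.94 for the hexose steps, -2.36 for the pyruvate dehydrogenase complex and -1.56 for the citric acid cycle. Median-of-ratios scaling moved the median of all genes to -0.49. It left 31 lower and 6 higher of 52 measured genes, beside 43.0% and 29.7% of all genes. The pdha1b gene, lower as deposited, was then not measured. The genes hk1, gpia, aldocb, pgam1a, ldha, pdha1a, aco1, mdh1a, pfkfb1 and pfkfb2 were then no longer 2-fold lower. Upper-quartile scaling also gave 31 lower and 6 higher, beside 46.0% and 26.8%, and equal-total scaling 40 lower and 5 higher, beside 58.6% and 16.4%.

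The step between egg and 1k-cell embryos covers cleavage, when most RNA is still maternal. The libraries hold poly(A) RNA, and RNA without a poly(A) tail was not measured. A higher count at this step therefore need not mean more RNA of that gene. As deposited, 25 of 44 measured genes were at least 2-fold higher in 1k-cell embryos and 6 lower, beside a background of 54.7% of all genes higher and 12.5% lower. The genes with the highest log2 ratios among the enzymes were eno1b (3.87), dlat (3.75), idh3g (3.70) and ldhd (3.53), and those with the lowest were hk1 (-5.53), idh1 (-2.92) and idh3a (-2.11). The median log2 ratio was 1.06, against 1.24 over all genes. The count depended on the scaling. With median-of-ratios scaling 14 genes lay above and 13 below the limits, beside 29.8% and 33.8% of all genes, and the median was -0.22 against -0.14 over all genes. The higher call was then lost for aldocb, gapdh, pgam1a, eno1a, eno3, ldha, ldhbb, pdha1a, pdhb, sucla2 and fh. The genes pfkma, pgk1, pkm2a, pdhx, idh3b, mdh1b and pfkfb4 were 2-fold lower instead of within 2-fold. Upper-quartile scaling gave 13 higher and 14 lower, beside 28.8% and 35.1%. Past 4-fold as deposited were 15 higher and 3 lower, beside 35.8% and 6.72%.

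The next step, germ ring against 1k-cell embryos, spans activation of the embryo's genome. Here 7 of 45 measured genes were at least 2-fold higher and 16 lower, beside a background of 16.0% of all genes higher and 34.2% lower. The hexose-step group, which includes the triosephosphate isomerase gene tpi1a, was split. Here hk1 and aldoaa were higher, and hk2, tpi1a, aldocb, pfkma, gck and gpia were lower. The triose steps had gapdh and eno3 higher and pgam1a, pkm2a and pgk1 lower. Among 12 citric acid cycle genes none was higher and 2 were lower, the cytosolic enzyme genes aco1 and mdh1b, and in the pyruvate dehydrogenase complex pdhb was higher. The median log2 ratio was 0.04 over these genes and -0.43 over all genes. With median-of-ratios scaling 14 were higher and 10 lower, with 5 citric acid cycle genes higher and none lower, and a median of 0.56 against 0.10. Of all genes 23.7% were then higher and 22.3% lower. The lower call was lost for gpia, pgk1, pkm2a, ldhd, aco1 and mdh1b, and ldhbb, pdhx, idh1, idh2, ogdh, suclg1 and mdh1a were 2-fold higher instead of within 2-fold. Upper-quartile scaling gave the same counts, beside 23.8% higher and 22.2% lower. Past 4-fold as deposited were 3 higher and 9 lower, beside 10.2% and 13.3%.

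Between germ ring embryos and egg, 24 of 45 measured genes were at least 2-fold higher and 11 lower, beside a background of 48.1% higher and 19.8% lower. This comparison shares its libraries with the others, so it is not independent of them. The median log2 ratio was 1.15 against 0.88 over all genes, with 2.16 for the pyruvate dehydrogenase complex, 1.14 for the citric acid cycle, 0.51 for the hexose steps and -0.60 for the triose steps. With median-of-ratios scaling 18 were higher and 15 lower, beside 34.7% and 32.1% of all genes, and the hexose-step median turned to -0.25. As deposited, 4 of the 9 measured triose-step genes were at least 2-fold higher and 3 lower, beside 48.1% and 19.8% of all genes. The negative median of the triose steps is thus not a direction that these genes share.

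**Figure D3:**
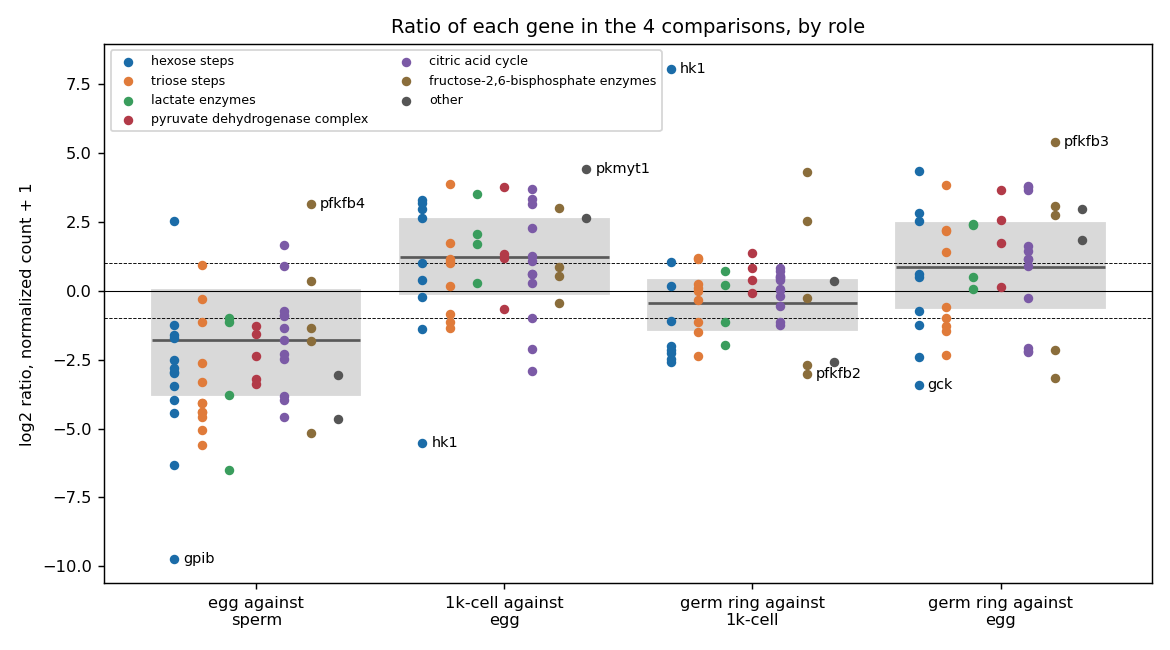
Log2 ratio of the normalized count plus 1 (vertical axis) of each measured gene in the 4 comparisons (horizontal axis), coloured by role; the grey box spans the quartiles of all genes, the grey line is their median, and the dashed lines mark 2-fold. In each comparison the genes with the highest and the lowest ratio are named, among them hk1 at 8.07 in germ ring against 1k-cell and at -5.53 in 1k-cell against egg.

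Hexokinase traps glucose in the cell as glucose-6-phosphate, and its copies alternated across the stages. The hk2 gene, whose mammalian counterpart is the inducible form, had 268 in egg, 2121 in 1k-cell embryos, 381 in germ ring embryos and 2954 in sperm. In 1k-cell embryos it was 7.92-fold higher (95% counting interval 6.65 to 9.49) than in egg, and in germ ring embryos 5.56-fold lower (95% counting interval 4.88 to 6.36) than in 1k-cell embryos. The hk1 gene, of the broadly used form, had 89.3 in egg, 0.951 in 1k-cell embryos, 523 in germ ring embryos and 275 in sperm, where the 1k-cell value is 1 read. Its ratio was 93.9-fold lower (95% counting interval 16.0 to 3792) in 1k-cell embryos against egg and 549.9-fold higher (95% counting interval 98.0 to 21781) in germ ring embryos against 1k-cell embryos. The glucokinase gene gck, of liver and pancreas in adults, had 121 in egg, 45.6 in 1k-cell embryos, 10.5 in germ ring embryos and 19.9 in sperm, and its 1k-cell value was 2.65-fold lower than that of egg. Of all hexokinase reads, hk2 held 56.0% (49.5 to 62.4%) in egg, 97.9% (97.2 to 98.4%) in 1k-cell embryos, 41.7% (37.7 to 45.7%) in germ ring embryos and 90.9% (89.9 to 91.9%) in sperm. Such shares within 1 enzyme do not depend on the scaling between libraries, and they are not corrected for transcript length.

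Glucose-6-phosphate isomerase and phosphofructokinase follow. The isomerase gene gpia had 1270.2 in egg, 1659 in 1k-cell embryos, 767 in germ ring embryos and 4139 in sperm. Its copy gpib had 0 in egg, 2.85 in 1k-cell embryos, 3.01 in germ ring embryos and 849 in sperm, which makes gpib at least 143-fold lower in the egg library. The phosphofructokinase gene pfkma, of the muscle-type subunit at the committed step of glycolysis, had 91.3 in egg, 77.0 in 1k-cell embryos, 16.6 in germ ring embryos and 729 in sperm. Its copy pfkmb had 0 in egg, 0.951 in 1k-cell embryos, 4.52 in germ ring embryos and 79.5 in sperm. In the germ ring library pfkma was 4.65-fold lower (95% counting interval 2.46 to 9.68) than in 1k-cell embryos. A liver-type subunit gene, pfklb, is listed under the clone name zgc:110298 and lies outside the name pattern; it had 101 in egg, 455 in 1k-cell embryos, 325 in germ ring embryos and 171 in sperm.

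Aldolase splits fructose-1,6-bisphosphate. The aldoaa gene, of the muscle-type enzyme, had 542 in egg, 5357 in 1k-cell embryos, 10928 in germ ring embryos and 4171 in sperm. It was 9.89-fold higher (95% counting interval 8.76 to 11.2) in 1k-cell embryos than in egg and 2.04-fold higher in germ ring embryos than in 1k-cell embryos. The aldocb gene, of the brain-type enzyme, had 713 in egg, 1439 in 1k-cell embryos, 298 in germ ring embryos and 1701 in sperm. It was 4.83-fold lower in germ ring embryos than in 1k-cell embryos, while its log2 ratios of 1.01 in 1k-cell embryos against egg and -1.25 in egg against sperm turned to -0.27 and 0.01 under median-of-ratios scaling. The copies aldoab and aldoca had 20.9 and 33.8 in sperm and at most 2 reads elsewhere. The share of aldocb in the reads of aldoaa and aldocb together was 56.8% (52.8 to 60.7%) in egg, 21.2% (20.2 to 22.1%) in 1k-cell embryos, 2.66% (2.304 to 3.05%) in germ ring embryos and 29.0% (27.8 to 30.1%) in sperm, so that the muscle-type gene took nearly all of these reads in germ ring embryos.

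Triosephosphate isomerase interconverts the 3-carbon products of aldolase, and its copies parted between 1k-cell and germ ring embryos. The tpi1a gene had 268 in egg, 2466 in 1k-cell embryos, 405 in germ ring embryos and 4184 in sperm. The tpi1b gene had 333 in egg, 2111 in 1k-cell embryos, 2361 in germ ring embryos and 1921 in sperm. Both were higher in 1k-cell embryos than in egg, tpi1a 9.20-fold higher and tpi1b 6.33-fold higher. In germ ring embryos tpi1a was 6.09-fold lower (95% counting interval 5.37 to 6.93) than in 1k-cell embryos, and tpi1b was within 2-fold (log2 ratio 0.16). The share of tpi1b in the reads of the pair was 55.4% (49.7 to 61.1%) in egg, 46.1% (44.7 to 47.5%) in 1k-cell embryos, 85.3% (83.6 to 86.9%) in germ ring embryos and 31.5% (30.3 to 32.6%) in sperm.

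**Figure D4:**
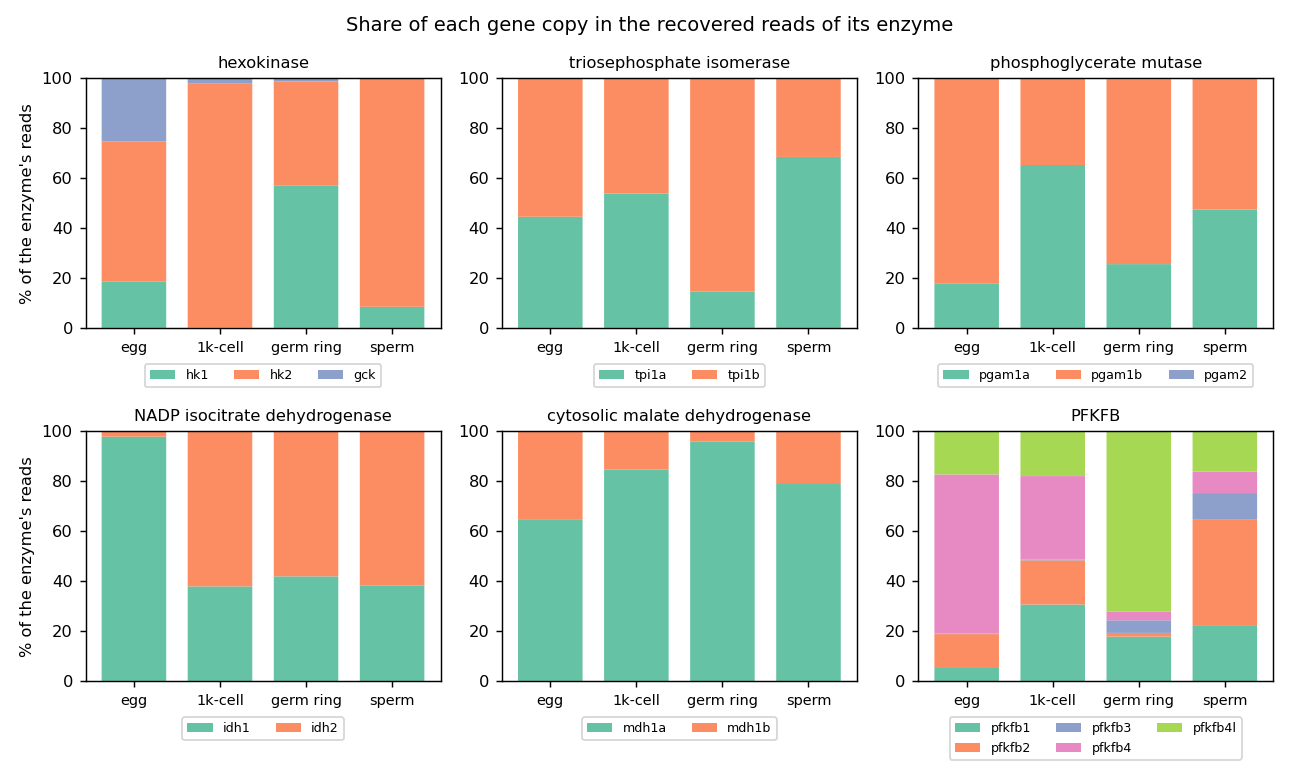
Share of each gene (stacked colours) in the recovered reads of its set of related genes (vertical axis, percent) in the egg, 1k-cell, germ ring and sperm libraries (1 each), for 6 sets. The genes of a set need not be copies of the same enzyme: idh1 is cytosolic and idh2 mitochondrial. The share of hk1 is highest in germ ring embryos and that of idh1 in egg, and among the PFKFB genes the share of pfkfb4 is highest in egg and of pfkfb4l in germ ring embryos.

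The PFKFB enzymes set the level of fructose-2,6-bisphosphate, the activator of phosphofructokinase. The pfkfb4 gene had 1316 in egg, 959 in 1k-cell embryos, 146 in germ ring embryos and 146 in sperm. The gene was 9.01-fold higher (95% counting interval 7.53 to 10.8) in egg than in sperm and 6.56-fold lower (95% counting interval 5.33 to 8.17) in germ ring embryos than in 1k-cell embryos. The gene listed as pfkfb4l, now pfkfb4b, had 355 in egg, 512 in 1k-cell embryos, 2974 in germ ring embryos and 274 in sperm. Its count was 5.80-fold higher (95% counting interval 5.27 to 6.40) in germ ring embryos than in 1k-cell embryos. The shares of these copies differed in opposite directions: pfkfb4 held 3.55% (2.88 to 4.31%) of the PFKFB reads in germ ring embryos, against 63.8% (60.8 to 66.7%) in egg. The share of pfkfb4l was 72.1% (70.4 to 73.8%) in germ ring embryos, against 17.2% (15.0 to 19.7%) in egg. RefSeq gives pfkfb4 as an older name of both pfkfb4a and pfkfb4b, so which copy that entry counts cannot be told from its name.

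Of the other PFKFB genes, pfkfb3 had 3.97 in egg, 9.51 in 1k-cell embryos, 208 in germ ring embryos and 178 in sperm, where the egg value is 2 reads, and was 21.9-fold higher (95% counting interval 11.5 to 46.6) in germ ring embryos than in 1k-cell embryos. The pfkfb2 gene had 279.8 in egg, 507 in 1k-cell embryos, 61.8 in germ ring embryos and 723 in sperm. This count was 8.20-fold lower (95% counting interval 5.97 to 11.6) in germ ring embryos than in 1k-cell embryos. The pfkfb1 gene had 107 in egg, 878 in 1k-cell embryos, 732 in germ ring embryos and 380.5 in sperm. It was 8.20-fold higher (95% counting interval 6.23 to 11.0) in 1k-cell embryos than in egg. The germ ring library was thus high for pfkfb3 and pfkfb4l and low for pfkfb2 and pfkfb4.

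In the triose steps the gene of glyceraldehyde-3-phosphate dehydrogenase, gapdh, had 865 in egg, 1734 in 1k-cell embryos, 3943 in germ ring embryos and 14502 in sperm. It was 16.8-fold lower (95% counting interval 15.2 to 18.5) in egg than in sperm, and 2.27-fold higher in germ ring embryos than in 1k-cell embryos. Its log2 ratio of 1.00 in 1k-cell embryos against egg lay at the 2-fold limit and turned to -0.28 under median-of-ratios scaling. The gapdhs gene, whose mammalian counterpart is specific to sperm cells, had 123 in egg, 55.1 in 1k-cell embryos, 43.7 in germ ring embryos and 2595 in sperm. The gene was 21.1-fold lower (95% counting interval 16.4 to 27.6) in egg than in sperm. The share of gapdhs in the reads of the pair was 12.4% (9.68 to 15.7%) in egg, 3.08% (2.35 to 3.97%) in 1k-cell embryos, 1.096% (0.735 to 1.57%) in germ ring embryos and 15.2% (14.6 to 15.7%) in sperm. The sperm library thus held more of both genes, while the share of gapdhs there lay nearer to that of egg than to those of the embryos. RefSeq carries gapdh as an older name of gapdhs as well.

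Phosphoglycerate kinase, which makes the first ATP of the pathway, is encoded by pgk1, which had 1957 in egg, 2187 in 1k-cell embryos, 987 in germ ring embryos and 11922 in sperm. Its egg count was 6.09-fold lower than that of sperm, and its count was 2.22-fold lower in germ ring embryos than in 1k-cell embryos. The mutase gene pgam1a had 945 in egg, 3182 in 1k-cell embryos, 622 in germ ring embryos and 2074 in sperm. The pgam1b gene had 4339 in egg, 1688 in 1k-cell embryos, 1802 in germ ring embryos and 2274 in sperm. Of the 3 stages, 1k-cell embryos had the highest count of pgam1a and the lowest of pgam1b, and pgam1a held 17.9% (16.4 to 19.4%) of the mutase reads in egg, 65.3% (64.0 to 66.6%) in 1k-cell embryos, 25.6% (23.5 to 27.8%) in germ ring embryos and 47.5% in sperm. As deposited pgam1a was 2.196-fold lower in egg than in sperm, but its log2 ratio of -1.13 became 0.13 under median-of-ratios scaling. The muscle-type gene pgam2 had 0 in egg, 3.80 in 1k-cell embryos, 9.04 in germ ring embryos and 22.8 in sperm.

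Among the enolase genes eno3, of the muscle-type enzyme in mammals, had 454 in egg, 929.8 in 1k-cell embryos, 2096 in germ ring embryos and 7660.3 in sperm. The eno1a gene had 139 in egg, 311 in 1k-cell embryos, 368 in germ ring embryos and 1386 in sperm. The eno1b gene had 42.8 in 1k-cell embryos and 42.2 in germ ring embryos, against 1 read in egg, and 97.4 in sperm. Each of these 3 was lower in egg than in sperm, eno3 16.9-fold lower, eno1a 9.98-fold lower and eno1b 49.1-fold lower (95% counting interval 8.60 to 1957), and the log2 ratios of eno3 and eno1a in 1k-cell embryos against egg (1.03 and 1.16) turned to -0.25 and -0.12 under median-of-ratios scaling. The share of eno3 in the enolase reads stayed in a narrow range, with 76.3% in egg, 72.4% in 1k-cell embryos, 83.6% in germ ring embryos and 83.6% in sperm. The eno2 gene had 0 in egg, 0.951 in 1k-cell embryos, 0 in germ ring embryos and 19.9 in sperm.

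Pyruvate kinase closes the pathway. Its gene pkm2a, now pkma, had 8641 in egg, 4763 in 1k-cell embryos, 1702 in germ ring embryos and 10631 in sperm. Its count was 2.80-fold lower (95% counting interval 2.62 to 2.99) in germ ring embryos than in 1k-cell embryos and 5.08-fold lower (95% counting interval 4.75 to 5.42) in germ ring embryos than in egg. The values thus stepped down across the 3 stages. The copy pkm2b, now pkmb, had 47.7 in sperm and no read in the other 3 libraries.

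Lactate dehydrogenase converts pyruvate and lactate into each other, with the A form favouring lactate and the B form known from heart. The ldhba gene had 9203 in egg, 11232 in 1k-cell embryos, 13103 in germ ring embryos and 18142 in sperm. As deposited it was within 2-fold in each of the 4 comparisons, from a log2 ratio of -0.98 in egg against sperm to 0.51 in germ ring embryos against egg. Under upper-quartile scaling its log2 ratio in 1k-cell embryos against egg was -1.06, past the 2-fold limit. The ldha gene had 167 in egg, 696 in 1k-cell embryos, 176 in germ ring embryos and 366 in sperm. As deposited ldha was 4.17-fold higher (95% counting interval 3.33 to 5.30) in 1k-cell embryos than in egg. It was 3.95-fold lower (95% counting interval 3.24 to 4.84) in germ ring embryos than in 1k-cell embryos. Under median-of-ratios scaling its log2 ratio in 1k-cell embryos against egg was 0.78, within 2-fold. That of -1.13 in egg against sperm became 0.13. The share of ldha in the reads of the 3 copies was 1.78% (1.42 to 2.197%) in egg, 5.83% (5.42 to 6.25%) in 1k-cell embryos, 1.32% (1.097 to 1.59%) in germ ring embryos and 1.93% (1.74 to 2.13%) in sperm. The copy ldhbb had 3.97 in egg, 15.2 in 1k-cell embryos, 25.6 in germ ring embryos and 455 in sperm. This count was 115-fold lower (95% counting interval 31.6 to 949) in egg than in sperm. The D-lactate dehydrogenase gene ldhd had 47.6 in egg, 560.0 in 1k-cell embryos, 252 in germ ring embryos and 676 in sperm. It was 11.8-fold higher (95% counting interval 7.82 to 18.5) in 1k-cell embryos than in egg.

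The pyruvate dehydrogenase complex joins an E1 enzyme of alpha and beta subunits, the E2 acetyltransferase and an E3-binding protein. The E1 alpha gene pdha1a had 1008 in egg, 2572 in 1k-cell embryos, 3370.3 in germ ring embryos and 3001 in sperm. The E1 beta gene pdhb had 198 in egg, 456 in 1k-cell embryos, 1189 in germ ring embryos and 2066 in sperm. The E2 gene dlat had 103 in egg, 1400.5 in 1k-cell embryos, 1324 in germ ring embryos and 954 in sperm. The E3-binding protein gene pdhx had 198 in egg, 124 in 1k-cell embryos, 218 in germ ring embryos and 1025 in sperm. The subunits differed in their factors. As deposited, in 1k-cell embryos against egg dlat was 13.6-fold higher (95% counting interval 10.3 to 18.3), pdha1a 2.55-fold higher and pdhb 2.299-fold higher. The pdhx gene was within 2-fold there (log2 ratio -0.68). Under median-of-ratios scaling the log2 ratios were 2.47 for dlat, 0.07 for pdha1a, -0.08 for pdhb and -1.96 for pdhx, which was then past the 2-fold limit. In germ ring embryos pdhb was 2.605-fold higher (95% counting interval 2.32 to 2.92) than in 1k-cell embryos, and dlat was within 2-fold. The E3 gene dldh, outside the name pattern, had 1068 in egg, 1423 in 1k-cell embryos, 2055 in germ ring embryos and 1479 in sperm. The second E1 alpha copy pdha1b had 3.97 in egg and 10.9 in sperm and no read in the embryo libraries.

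In the citric acid cycle group the cytosolic aconitase gene aco1, whose product also acts as an iron sensor, had 113 in egg, 557 in 1k-cell embryos, 252 in germ ring embryos and 289 in sperm. The NADP-dependent isocitrate dehydrogenases divided their reads differently in egg and in embryos. The cytosolic gene idh1 had 8594 in egg, 1134 in 1k-cell embryos, 1871 in germ ring embryos and 2704 in sperm. The gene was 3.18-fold higher (95% counting interval 3.03 to 3.34) in egg than in sperm and 7.58-fold lower (95% counting interval 7.10 to 8.08) in 1k-cell embryos than in egg. The mitochondrial gene idh2 had 183 in egg, 1859.7 in 1k-cell embryos, 2593 in germ ring embryos and 4381 in sperm. Its count was 10.2-fold higher (95% counting interval 8.26 to 12.7) in 1k-cell embryos than in egg. The share of idh1 in the reads of the pair was 97.9% (97.5 to 98.3%) in egg, 37.9% (36.2 to 39.6%) in 1k-cell embryos, 41.9% (40.1 to 43.7%) in germ ring embryos and 38.2% (37.0 to 39.3%) in sperm, so that egg stood apart from the other 3 libraries.

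The NAD-dependent isocitrate dehydrogenase of the cycle is built from alpha, beta and gamma subunits, and these parted as well. The alpha gene idh3a had 1868 in egg, 431 in 1k-cell embryos, 441 in germ ring embryos and 1011 in sperm. The beta gene idh3b had 1439 in egg, 1749 in 1k-cell embryos, 1187 in germ ring embryos and 2698 in sperm. The gamma gene idh3g had 31.8 in egg, 426 in 1k-cell embryos, 447 in germ ring embryos and 183 in sperm in the entry with the higher sum. This name has 2 entries, and the ratios of idh3g given here rest on that entry alone. Summing the entries turned the median of the set in germ ring against 1k-cell embryos from 0.0355 to -0.0198. The ratios of idh3g thus depend on the entry used, and its summed ratios are not given. In 1k-cell embryos against egg idh3a was 4.34-fold lower (95% counting interval 3.87 to 4.86) and idh3g 13.4-fold higher (95% counting interval 8.17 to 23.7), with idh3b within 2-fold, and in germ ring embryos against 1k-cell embryos all 3 were within 2-fold.

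For the later steps, the oxoglutarate dehydrogenase gene ogdh had 189 in egg, 1675 in 1k-cell embryos, 2376 in germ ring embryos and 2929.6 in sperm. This count was 8.88-fold higher (95% counting interval 7.23 to 11.0) in 1k-cell embryos than in egg. The succinate-CoA ligase genes sucla2, of the ADP-forming enzyme, and suclg1, of the shared alpha subunit, had 1612 and 373 in egg, 3445 and 565 in 1k-cell embryos, 3006 and 823 in germ ring embryos, and 2961 and 1844 in sperm. The fumarase gene fh had 121 in egg, 293 in 1k-cell embryos, 379.7 in germ ring embryos and 1736 in sperm. It was 14.3-fold lower (95% counting interval 11.1 to 18.8) in egg than in sperm. As deposited sucla2 and fh were 2.14-fold higher and 2.42-fold higher in 1k-cell embryos than in egg, but with median-of-ratios scaling the log2 ratios became -0.19 and -0.00949. The cytosolic malate dehydrogenase genes again diverged: mdh1a had 973 in egg, 1489.8 in 1k-cell embryos, 2644 in germ ring embryos and 3351 in sperm, and mdh1b had 534 in egg, 269 in 1k-cell embryos, 113 in germ ring embryos and 894 in sperm. The share of mdh1b in the reads of the pair was 35.4% (32.0 to 39.0%) in egg, 15.3% (13.7 to 17.0%) in 1k-cell embryos, 4.10% (3.24 to 5.11%) in germ ring embryos and 21.1% (19.8 to 22.3%) in sperm. RefSeq gives mdh1a as an older name of mdh1aa and holds mdh1b under its own symbol. Whether this pair are copies of the same enzyme cannot be told from their names. The mitochondrial gene mdh2, listed under the clone name zgc:64133 and outside the name pattern, had 857 in egg, 2954 in 1k-cell embryos, 2221 in germ ring embryos and 6627 in sperm.

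The 2 genes matched by their letters alone are given apart. The phosphatase gene pgam5 had 419 in egg, 2589.8 in 1k-cell embryos, 3298 in germ ring embryos and 3517 in sperm. The kinase gene pkmyt1 had 45.6 in egg, 1002 in 1k-cell embryos, 166 in germ ring embryos and 1166 in sperm, and its ratio of 22.0-fold higher (95% counting interval 14.6 to 34.8) in 1k-cell embryos against egg was the highest of the 44 measured there. Leaving both out changed the counts by at most 2 in each comparison.

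Neighbouring pathways were read from lists of gene names. The log2 ratio of a gene with no read in one library depends on the 1 added to each count. Of 8 pentose phosphate genes 5 were above 2-fold in 1k-cell embryos against egg and none lower, beside 54.7% and 12.5% of all genes, led by pgls (log2 ratio 3.22) and rpia (3.08), with the transketolase gene tkt at 13537 in 1k-cell embryos against 2729 in egg. The list's median log2 ratio of 1.71 stood beside 1.24 over all genes. With median-of-ratios scaling 4 of the 8 were higher and 2 lower, beside 29.8% and 33.8%. In germ ring embryos against 1k-cell embryos 1 of the 8 was lower, pgls, and none higher, beside 34.2% of all genes lower and 16.0% higher. In egg against sperm 6 were lower, beside 61.3% of all genes, and 1 higher, beside 14.3%, namely prps1b (1869.6 in egg against 676 in sperm). For the pentose phosphate genes the log2 ratios ran from pgls (-3.14) and rpe (-2.80) up to pgd (0.32) and prps1b (1.47) in egg against sperm. They ran from pgd (-0.23) and prps1b (0.13) up to rpia (3.08) and pgls (3.22) in 1k-cell embryos against egg, and from pgls (-1.98) and rpia (-0.25) up to rpe (0.68) and prps1a (0.83) in germ ring against 1k-cell embryos. Between germ ring embryos and egg they ran from pgd (-0.14) and prps1b (0.30) up to rpia (2.83) and prps1a (3.69).

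Of the 8 genes of glucose and lactate transport found in the data, 6 were measured in germ ring embryos against 1k-cell embryos, and 1 was at least 2-fold higher and 1 lower (slc16a7), beside 16.0% of all genes higher and 34.2% lower. The sugar transporter gene slc2a12 was the higher one, with 23.8 in egg, 248 in 1k-cell embryos, 3310.1 in germ ring embryos and 125 in sperm. The monocarboxylate transporter gene slc16a3 had 18739.6 in egg, 46162 in 1k-cell embryos, 27526 in germ ring embryos and 10765 in sperm. Its partner gene bsg had 17481 in egg, 13146 in 1k-cell embryos, 14006 in germ ring embryos and 7012 in sperm. The glucose transporter gene slc2a1a had 29.8 in sperm and no read in the other 3 libraries. For the transporters the log2 ratios ran from slc2a2 (-6.97) and slc2a1a (-4.94) up to slc16a3 (0.80) and bsg (1.32) in egg against sperm. They ran from bsg (-0.41) and slc16a7 (0.26) up to slc2a12 (3.33) and slc2a8 (3.34) in 1k-cell embryos against egg, and from slc16a7 (-1.70) and slc2a10 (-0.99) up to slc2a8 (0.32) and slc2a12 (3.73) in germ ring against 1k-cell embryos. Germ ring embryos against egg gave a range from slc16a7 (-1.44) and bsg (-0.32) up to slc2a8 (3.66) and slc2a12 (7.06).

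Gluconeogenesis shares its reversible steps with glycolysis, and 2 of 8 measured genes of this list were higher and 1 lower in germ ring embryos against 1k-cell embryos, beside 16.0% of all genes higher and 34.2% lower. The fructose-1,6-bisphosphatase gene fbp1b, whose product reverses the phosphofructokinase step, had 857 in germ ring embryos and no read in the 1k-cell and egg libraries. It was at least 301-fold higher in germ ring than in 1k-cell embryos. The mitochondrial phosphoenolpyruvate carboxykinase gene pck2 had 569.5 in germ ring embryos against 16.2 in 1k-cell embryos, while its cytosolic counterpart pck1 had no read in either. The copies fbp1a and fbp2 had 79.9 and 9.04 in germ ring embryos against 49.4 and 17.1 in 1k-cell embryos. The lower gene was me1 of cytosolic malic enzyme, with 172 in germ ring embryos against 460.2 in 1k-cell embryos. With median-of-ratios scaling 3 were higher and none lower, beside 23.7% and 22.3%. For the gluconeogenic list the log2 ratios ran from fbp1b (-6.86) and fbp2 (-5.85) up to pc (1.03) and me3 (1.68) in egg against sperm. They ran from pck1 (-5.03) and pck2 (-1.95) up to me2 (2.69) and fbp2 (4.18) in 1k-cell embryos against egg, and from me1 (-1.42) and me3 (-0.88) up to pck2 (5.05) and fbp1b (9.75) in germ ring against 1k-cell embryos. Germ ring embryos against egg gave a range from pck1 (-5.03) and me1 (-1.68) up to pck2 (3.10) and fbp1b (9.75).

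In the list of glycogen and hexose entry genes 12 of 17 were at least 2-fold higher and 2 lower in 1k-cell embryos against egg, beside 54.7% and 12.5% of all genes. In germ ring embryos against 1k-cell embryos 3 of 19 were higher and 8 lower, beside 16.0% and 34.2%. With median-of-ratios scaling 7 of 18 were higher and 5 lower in the first, beside 29.8% and 33.8%, and 4 of 18 higher and 2 lower in the second, beside 23.7% and 22.3%. The phosphoglucomutase gene pgm1, which links glycogen to glycolysis, had 17.9 in egg, 898 in 1k-cell embryos, 973 in germ ring embryos and 1542 in sperm. The glycogen phosphorylase gene pygmb had 0 in egg, 2.85 in 1k-cell embryos, 365 in germ ring embryos and 268 in sperm. The glycogen synthase gene gys1 had 1790.2 in egg, 1797 in 1k-cell embryos, 178 in germ ring embryos and 2362 in sperm. In germ ring embryos against 1k-cell embryos pygmb was 128-fold higher (95% counting interval 43.2 to 624) and gys1 10.1-fold lower (95% counting interval 8.39 to 12.3). For the glycogen and hexose list the log2 ratios ran from pygmb (-8.07) and pgm1 (-6.35) up to gnpda1 (0.34) and adpgk (1.72) in egg against sperm. They ran from pgm2 (-1.97) and gnpda1 (-1.96) up to gale (3.49) and pgm1 (5.58) in 1k-cell embryos against egg, and from gys1 (-3.33) and pgm2 (-2.31) up to khk (3.06) and pygmb (6.57) in germ ring against 1k-cell embryos. Germ ring embryos against egg gave a range from pgm2 (-4.28) and gys1 (-3.32) up to pgm1 (5.69) and pygmb (8.51).

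Regulators of pyruvate dehydrogenase were few. The phosphatase genes pdp1 and pdp2, which activate the complex, had 884 and 695 in germ ring embryos, against 6036 and 2655 in 1k-cell embryos. The inhibitory kinase gene pdk2 had 51.6 in egg, 1.90 in 1k-cell embryos, 7.53 in germ ring embryos and 175 in sperm. For the regulators with dldh the log2 ratios ran from pdk2 (-1.74) and pdp2 (-0.87) up to dldh (-0.47) and pdp1 (1.35) in egg against sperm. They ran from pdk2 (-4.18) and dldh (0.41) up to pdp2 (1.26) and pdp1 (1.27) in 1k-cell embryos against egg, and over pdp1 (-2.77), pdp2 (-1.93) and dldh (0.53) in germ ring against 1k-cell embryos. Germ ring embryos against egg gave a range from pdk2 (-2.62) and pdp1 (-1.50) up to pdp2 (-0.67) and dldh (0.94).

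Of 6 measured genes of succinate dehydrogenase, the enzyme shared by the cycle and the respiratory chain, 5 were lower and none higher in egg against sperm, beside 61.3% and 14.3% of all genes. In 1k-cell embryos against egg 3 of 5 were higher and none lower, beside 54.7% and 12.5%. Germ ring against 1k-cell embryos had 2 of 5 lower and none higher, beside 34.2% and 16.0%. Median-of-ratios scaling gave 4 lower and 1 higher in egg against sperm, beside 43.0% and 29.7%. It left 2 higher and 2 lower in 1k-cell embryos against egg, beside 29.8% and 33.8%, and none of the 5 past 2-fold in germ ring embryos against 1k-cell embryos, beside 23.7% higher and 22.3% lower. The subunit gene sdhdb had 191 in egg, 2156 in 1k-cell embryos, 1028 in germ ring embryos and 1818 in sperm. Its copy sdhda had 3.97 in egg, 7.61 in 1k-cell embryos, 6.03 in germ ring embryos and 224 in sperm. For the succinate dehydrogenase genes the log2 ratios ran from sdhda (-5.50) and sdhdb (-3.25) up to sdha (-1.29) and sdhb (0.34) in egg against sperm. They ran from sdhb (-0.49) and sdhc (0.27) up to sdhaf2 (2.55) and sdhdb (3.49) in 1k-cell embryos against egg, and from sdhdb (-1.07) and sdha (-1.03) up to sdhb (-0.19) and sdhc (0.10) in germ ring against 1k-cell embryos. Between germ ring embryos and egg they ran from sdhb (-0.69) and sdha (0.06) up to sdhaf2 (1.75) and sdhdb (2.42).

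In the list of regulators and mitochondrial carriers 3 of 8 genes passed 2-fold upward and none downward in 1k-cell embryos against egg, beside 54.7% and 12.5% of all genes. For germ ring against 1k-cell embryos 1 of 8 was higher and 5 lower, beside 16.0% and 34.2%. With median-of-ratios scaling 2 of 9 were higher and 5 lower in the first, beside 29.8% and 33.8%, and 1 of 8 higher and 2 lower in the second, beside 23.7% and 22.3%. The hypoxia-inducible factor gene hif1ab, whose product activates glycolytic genes in low oxygen, had 587 in egg, 7179 in 1k-cell embryos, 7862 in germ ring embryos and 2681 in sperm. The tigarb gene, of a fructose-bisphosphatase-type regulator, had 51.6 in egg, 409 in 1k-cell embryos, 64.8 in germ ring embryos and 359 in sperm. The ATP citrate lyase gene aclya, which draws citrate from the cycle, had 3007 in egg, 2847 in 1k-cell embryos, 1196 in germ ring embryos and 2839 in sperm. The dicarboxylate carrier gene slc25a10 had 3330.3 in egg, 3337 in 1k-cell embryos, 955 in germ ring embryos and 1335 in sperm. For the regulator list the log2 ratios ran from tigara (-5.90) and hif1al2 (-5.63) up to aclya (0.08) and slc25a10 (1.32) in egg against sperm. They ran from myca (-0.77) and hif1al (-0.22) up to tigarb (2.96) and hif1ab (3.61) in 1k-cell embryos against egg, and from tigarb (-2.64) and slc25a10 (-1.80) up to hif1ab (0.13) and hif1al (2.42) in germ ring against 1k-cell embryos. Germ ring embryos against egg gave a range from myca (-2.10) and slc25a10 (-1.80) up to hif1al (2.202) and hif1ab (3.74).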

How the data were processed

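Poly(A) RNA of 4 samples was sequenced with Illumina libraries, per the labels' protocols. The deposited signal per gene is the authors' read count scaled by the TMM method, per the file headers. The submitters' processing notes name the Zv9 (danRer7) build, edgeR and BWA 0.6.1-r104. The counting tool, annotation and strand setting were not given in the sources used here. All values were whole multiples of 1 step per library within 0.01 reads, so read counts were recovered.

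Of 15328 entries for 14244 names, the entry with the highest sum was used for the 718 repeated names. Symbols were matched to RefSeq (GRCz12tu): 47 of the 54 directly and 7 as older names. A further 2 matched names are not reported here and are in no count of the set. Ratios are log2 of the normalized count plus 1, for names at 10 or more in either library, called at 2-fold. Each library was set against the one before it in development, germ ring also against egg, and egg against sperm. Folds are ratios of the normalized counts, with exact (Clopper-Pearson) 95% intervals of the recovered reads; folds where one library had 0 reads are bounds set at 3 reads. Shares use exact binomial intervals. No test was run with 1 library per group. The authors' scaling rests on most genes being alike between libraries. Equal-total, upper-quartile and median-of-ratios scaling were tried beside it, and the last of these rests on the same assumption. Pseudocounts of 0.1 and 5, no floor and a floor of 50, a 4-fold limit and summed entries were also tried. Copies that are near identical may share reads. The genes and the lists were chosen with earlier results of these data known. Every gene of the 54 is named. Of the other lists the 2 highest and 2 lowest ratios of each comparison are given, with further names chosen after their values were seen. The calls were tested on simulated data with counting noise alone, in which 200 genes were set 4-fold higher. These were drawn from genes with a mean normalized count of 200 or more, so genes of low count were not tested. All 200 were recovered in each comparison. Of the 14244 genes, some left unchanged were also called higher: 94 in egg against sperm and 86 in 1k-cell embryos against egg. In germ ring embryos there were 75 against 1k-cell embryos and 147 against egg. Variation between samples and errors of scaling were not simulated, so the calls were not tested against them. Python 3.11.15, scipy 1.17.1 and pandas 2.3.3 were used. No nucleotide or protein sequences were used here, and transcript lengths were not used. Shares of reads between different genes are thus not corrected for length and do not give their relative transcript numbers.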

Additional observations from a re-analysis of the deposited data

How the results depend on the processing

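Scaling between libraries was the choice that moved the counts of genes past 2-fold. For egg against sperm the higher genes numbered 6 under median-of-ratios, 6 under upper-quartile and 5 under equal-total scaling in place of 3, and the median log2 ratio was -1.51 and -1.71 under the first 2 of these. For 1k-cell embryos against egg median-of-ratios scaling left 14 genes higher and 13 lower and upper-quartile scaling 13 and 14, in place of 25 and 6. The median there turned to -0.22 and -0.28 under these, and was 0.73 under equal-total scaling. For germ ring embryos against 1k-cell embryos both of these scalings gave 14 higher and 10 lower, in place of 7 and 16, with medians of 0.56 and 0.56, and for germ ring embryos against egg the medians were 0.39 and 0.33. With a 4-fold limit 15 were higher and 3 lower in 1k-cell embryos against egg, and 3 higher and 9 lower in germ ring embryos against 1k-cell embryos.

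Single genes past 2-fold as deposited took the other sign for 1k-cell embryos against egg, first with median-of-ratios and then with upper-quartile scaling: aldocb (-0.27 and -0.33), gapdh (-0.28 and -0.34), eno1a (-0.12 and -0.18), eno3 (-0.25 and -0.31), pdhb (-0.0823 and -0.14), sucla2 (-0.19 and -0.25) and fh (-0.0095 and -0.0689). For egg against sperm aldocb (0.0109), pgam1a (0.13) and ldha (0.13) turned under median-of-ratios scaling alone. No gene past 2-fold turned in the other comparisons under the 3 scalings. Pseudocounts, floors, summed entries and leaving out pkmyt1 and pgam5, which was chosen after seeing the data, kept each count within 1.5 times. Summing the repeated entries turned the median for germ ring embryos against 1k-cell embryos to -0.0198, in place of 0.04. Only idh3g and cs have 2 entries, and cs is at 0 in both, so idh3g alone made this difference. The count of genes highest in each of the 3 stages was also taken under the scalings after seeing the data: egg had 16 under median-of-ratios, 16 under upper-quartile and 12 under equal-total scaling in place of 9, and 1k-cell embryos 7, 7 and 13 in place of 16. No paired analysis was possible because each group has 1 library. Copy shares per coding length were not run. Depth limits the genes with 1 to 3 reads, such as hk1 in 1k-cell embryos.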
